A study of Mus musculus with 19 samples.

Results

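The genes described here are 10 immune checkpoint and regulatory genes: the transcription factor Foxp3, the inhibitory receptors Ctla4, Tigit, Pdcd1, Lag3 and Havcr2, the ligand Cd274, the cytokine Il10 and the enzymes Entpd1 and Ido1. They were taken by name from a table of 18521 genes, and each name matched 1 row. RNA was sequenced from skin pieces of 1 cm2 of female mice that all carried the alleles Ptch1+/-, K14-CreER2 and p53fl/fl, with day 4 given as the time from treatment. In such mice tamoxifen activates the Cre recombinase in keratin 14 expressing keratinocytes, which deletes the floxed p53 gene there, and basal cell carcinomas (BCC) can then form after x-rays. AFL skin (3 mice, 4 libraries) was induced with 3 injections of 300 µg tamoxifen and 1 x-ray dose of 4 Gy and then treated with an ablative fractional laser, a device that vaporises narrow columns of skin, in 1 treatment at 5% density and 40 mJ per microbeam. Vismodegib skin (4 mice, 5 libraries) was induced in the same way and received 8 topical applications of vismodegib, an inhibitor of the Hedgehog pathway protein Smoothened. BCC skin (4 mice, 4 libraries) was induced and left untreated, and healthy skin (5 mice, 6 libraries) was not induced. The induced mice were 228 to 326 days old in the AFL group, 268 to 326 days in the vismodegib group and 278 to 320 days in the BCC group, against 128 to 137 days in the healthy group, so that age and induction cannot be told apart. Time since induction was 80 to 126 days in AFL mice, 109 to 137 days in vismodegib mice and 130 to 144 days in BCC mice. The AFL and BCC ranges did not overlap, so that laser and time since induction cannot be told apart in AFL against BCC skin. No vehicle-treated or sham-treated skin was analysed here.

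Immune checkpoints are receptor and ligand pairs that restrain T cells after activation. PD-1 (Pdcd1) on T cells binds PD-L1 (Cd274) on myeloid, epithelial and tumour cells, CTLA-4 competes with the stimulatory receptor CD28, and TIGIT, LAG-3 and TIM-3 (Havcr2) act on T cells, with TIM-3 also present on myeloid cells. Regulatory T cells, which depend on FOXP3 and are abundant in skin around hair follicles, carry CTLA-4 and TIGIT and, with macrophages, make the dampening cytokine IL-10. CD39 (Entpd1) breaks down extracellular ATP towards adenosine, and IDO1 breaks down tryptophan. Both products restrain T cells.

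Each library held about 27185900 to 33556600 expected counts. Levels are given as CPM (counts scaled to a common library total, with TMM factors) of the counts summed over the libraries of a mouse. The TMM factor raised the CPM of vismodegib mouse 9 well above its plain share of counts. With a library total of 31858200, its 369 Ctla4 counts became 19.6 CPM. In vismodegib mouse 1, with a total of 32325100, 284 Ctla4 counts became 9.70 CPM. Transcripts of Trp53, the gene deleted in keratinocytes, were at 23.6 to 55.1 CPM in the 11 induced mice and at 94.0 to 142.9 CPM in the 5 healthy mice, with no overlap. The keratinocyte genes Krt5 and Krt14 were the highest of the cell type markers checked, at 3356 to 11166 CPM for Krt5, and the T cell gene Cd3e was at 1.94 to 4.42 CPM in AFL mice, 2.04 to 6.33 CPM in vismodegib mice, 2.29 to 11.8 CPM in BCC mice and 5.74 to 13.3 CPM in healthy mice. Cd3e was thus lower in every AFL mouse than in every healthy mouse, though it was not called. The induced mice differed in the growing-hair score, the mean log2 CPM of 15 hair shaft and matrix genes, which was -2.64 to 2.98 in AFL mice, 8.04 in vismodegib mouse 6 and -0.64 to 0.48 in the other 3 vismodegib mice. It was 8.14 in BCC mouse 3, 0.04 to 2.38 in the other 3 BCC mice and 3.42 to 9.18 in healthy mice. The AFL and healthy ranges did not overlap, and of the vismodegib mice only mouse 6 reached the healthy range. A call against healthy skin that was lost with this score as a covariate therefore cannot tell hair growth from group.

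The promoter windows of the genes that changed in at least 1 comparison are given here so that the sequence before each of these starts can be read beside the values. Of the 10 genes, 7 had an entry in the RefSeq promoter table (build GRCm38.p6), each window running from 250 bases before the start of transcription to 50 bases after it. The 6 of these genes that changed have 7 windows, written 5′ to 3′ on the strand of the gene. Capitals mark the 1 motif match found in these 7 windows. The counts themselves were made on another build, GRCm39.
Ctla4 (chr1:60908775-60909074, plus strand): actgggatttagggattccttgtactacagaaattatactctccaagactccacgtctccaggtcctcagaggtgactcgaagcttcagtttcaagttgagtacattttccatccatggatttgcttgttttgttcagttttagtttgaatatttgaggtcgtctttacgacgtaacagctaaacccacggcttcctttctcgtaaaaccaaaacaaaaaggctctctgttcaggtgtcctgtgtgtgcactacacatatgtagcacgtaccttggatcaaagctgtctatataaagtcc
Pdcd1 (chr1:94052504-94052803, minus strand): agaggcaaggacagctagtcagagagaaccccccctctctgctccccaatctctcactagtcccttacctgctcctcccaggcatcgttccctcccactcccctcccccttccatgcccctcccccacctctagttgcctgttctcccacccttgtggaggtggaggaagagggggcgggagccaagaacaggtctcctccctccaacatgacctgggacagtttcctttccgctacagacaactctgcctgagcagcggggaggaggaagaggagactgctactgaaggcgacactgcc
Cd274 (chr19:29367188-29367487, plus strand): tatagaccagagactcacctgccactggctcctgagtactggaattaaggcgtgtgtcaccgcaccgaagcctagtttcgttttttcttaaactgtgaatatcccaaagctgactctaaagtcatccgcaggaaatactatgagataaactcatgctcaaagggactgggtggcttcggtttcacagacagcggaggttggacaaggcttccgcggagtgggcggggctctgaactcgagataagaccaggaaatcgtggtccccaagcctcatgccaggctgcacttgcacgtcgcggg
Havcr2 (chr11:46454681-46454980, plus strand): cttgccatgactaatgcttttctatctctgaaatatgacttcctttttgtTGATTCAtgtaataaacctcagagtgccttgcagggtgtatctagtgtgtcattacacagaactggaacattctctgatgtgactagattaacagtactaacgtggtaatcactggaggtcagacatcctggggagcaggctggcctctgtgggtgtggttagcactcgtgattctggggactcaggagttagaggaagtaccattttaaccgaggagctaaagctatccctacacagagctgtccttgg
Tigit (chr16:43664135-43664434, minus strand): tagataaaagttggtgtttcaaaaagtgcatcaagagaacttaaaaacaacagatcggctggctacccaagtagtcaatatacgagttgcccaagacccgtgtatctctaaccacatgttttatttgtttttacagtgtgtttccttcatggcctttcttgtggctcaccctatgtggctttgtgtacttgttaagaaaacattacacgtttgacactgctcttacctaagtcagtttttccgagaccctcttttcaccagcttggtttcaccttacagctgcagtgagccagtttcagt
Entpd1 (chr19:40612116-40612415, plus strand): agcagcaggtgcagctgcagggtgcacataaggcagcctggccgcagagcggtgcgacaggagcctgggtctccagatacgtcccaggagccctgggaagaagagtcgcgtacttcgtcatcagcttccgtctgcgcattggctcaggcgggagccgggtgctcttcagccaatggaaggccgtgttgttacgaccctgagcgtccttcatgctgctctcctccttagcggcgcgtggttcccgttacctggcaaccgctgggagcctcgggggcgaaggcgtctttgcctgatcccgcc
Entpd1 (chr19:40659520-40659819, plus strand): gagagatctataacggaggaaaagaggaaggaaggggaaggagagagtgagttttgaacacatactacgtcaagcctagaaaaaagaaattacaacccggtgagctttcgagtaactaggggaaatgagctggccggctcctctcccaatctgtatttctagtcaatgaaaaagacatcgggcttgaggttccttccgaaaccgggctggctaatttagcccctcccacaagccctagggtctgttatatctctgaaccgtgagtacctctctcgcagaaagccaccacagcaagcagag
The motifs searched on both strands were the interferon-stimulated response element (GAAA, any 2 bases, GAAA), the interferon gamma activated site TTCNNNGAA and the AP-1 site TGANTCA. Only the Havcr2 window among these 7 held a match, the AP-1 letters TGATTCA at positions -200 to -194. Over all 32851 windows of the table, 3.44% held the first motif, 8.3% the second and 7.81% the AP-1 site, and 18.1% held at least 1 of the 3, with no match overlapping another motif in the Havcr2 window. No window was printed for Lag3, Il10 or Ido1, and the windows of Foxp3, which was called in no comparison, are not shown. A window of Foxp3 held the letters TTCCAAGAA, a match to the interferon gamma activated site, at positions -139 to -131.

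Of the 10 genes, 9 passed the filter on low counts and entered the test, edgeR's quasi-likelihood test with Benjamini-Hochberg adjustment over 15760 genes. A gene was called changed at an adjusted p under 0.05. Every call was upward, and 0 of 9 genes were called down in any of the 6 comparisons, where 0.159% (BCC against healthy), 1.65% (AFL against BCC), 9.00% (vismodegib against BCC), 2.46% (AFL against vismodegib), 1.29% (AFL against healthy) and 4.07% (vismodegib against healthy) of all genes tested were called down. In BCC against healthy skin 0 of 9 genes were called (2.66% of all genes tested were called up), with 3 at an unadjusted p under 0.05 and 0 called by DESeq2. In AFL against BCC skin 1 of 9 was called, Il10 (6.10% of all genes called up). For vismodegib against BCC skin 2 of 9 were called, Pdcd1 and Cd274 (8.03% of all genes called up). In AFL against vismodegib skin 0 of 9 were called (6.69% of all genes called up), with 3 at an unadjusted p under 0.05 and 0 called by DESeq2.

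In AFL against healthy skin 4 of 9 genes were called, Il10, Cd274, Entpd1 and Havcr2 (7.95% of all genes called up). In vismodegib against healthy skin 5 of 9 were called, Ctla4, Pdcd1, Cd274, Tigit and Il10 (7.57% of all genes called up). The median log2 fold change of the 9 genes was 1.22 in AFL against healthy skin and 1.58 in vismodegib against healthy skin, where the median over all genes tested was 0.01 and 0.02. It was 0.69 in AFL against BCC skin, 0.74 in vismodegib against BCC skin, 0.21 in AFL against vismodegib skin and 0.38 in BCC against healthy skin, where the median over all genes was between -0.06 and 0.05. These comparisons share their AFL, vismodegib, BCC or healthy mice. In AFL against BCC skin 4 of 9 genes (Pdcd1, Cd274, Havcr2 and Il10) were higher in every AFL mouse than in every BCC mouse, as were 11.5% of all genes tested. In AFL against healthy skin 5 of 9 were, against 14.7% of all genes, and in AFL against vismodegib skin 1 of 9 was, against 13.0% of all genes. For vismodegib against BCC skin 1 of 9 was (Pdcd1; 7.63% of all genes), and in vismodegib against healthy skin 2 of 9 were (Pdcd1 and Tigit; 9.33% of all genes). In BCC against healthy skin 0 of 9 were (5.18% of all genes). With library size alone in place of TMM the median over all genes shifted by -0.35 in vismodegib against BCC skin, -0.27 in vismodegib against healthy skin, 0.22 in AFL against vismodegib skin and -0.14 in AFL against BCC skin. The share of all calls that were upward was then 16.9% in place of 47.2% in vismodegib against BCC skin, 39.7% in place of 65.0% in vismodegib against healthy skin and 87.6% in place of 73.1% in AFL against vismodegib skin.

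**Figure D1:**
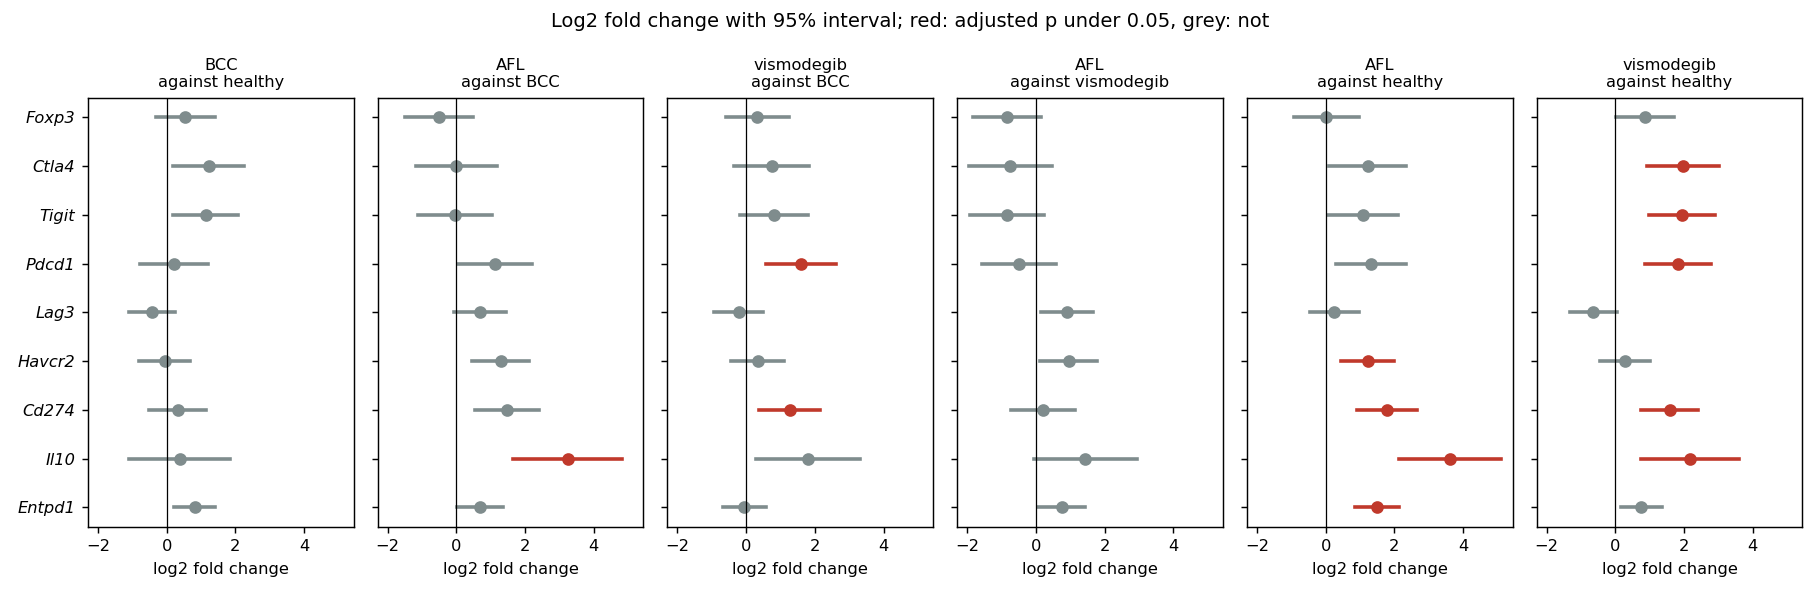
Log2 fold change (x axis) of the 9 tested genes (rows) in 6 comparisons (panels), with 95% intervals from edgeR's quasi-likelihood fit; red marks an adjusted p under 0.05 and grey the rest. Il10 is the furthest to the right in AFL against BCC skin (3.24) and AFL against healthy skin (3.61), and no interval is red to the left of 0.

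The cytokine Il10 was higher in every AFL mouse than in every BCC and healthy mouse. Its level was 2.66, 2.16 and 1.94 CPM in AFL mice 2, 7 and 11, 0.342, 0.335, 2.39 and 0.377 CPM in vismodegib mice 1, 6, 9 and 12, 0.0869, 0.176, 0.497 and 0.191 CPM in BCC mice 3, 4, 5 and 8, and 0.148, 0.175, 0.0552, 0.376 and 0.159 CPM in healthy mice 10, 13, 14, 15 and 16. The AFL mice thus lay above both untreated groups, and among vismodegib mice only mouse 9 reached the AFL range. Mouse 9 is the mouse whose CPM the TMM factor raised. It held 45 Il10 counts at a library total of 31858200, fewer than the 71 counts of AFL mouse 7 at a total of 33228300. Il10 rose 9.42-fold in AFL against BCC skin (95% interval 3.14 to 28.3; log2 fold change 3.24, SE 0.75, edgeR adjusted p = 0.0124). It rose by a log2 fold change of 3.61 in AFL against healthy skin (SE 0.70, edgeR adjusted p = 0.00275).

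In vismodegib skin the Il10 result rested on 1 mouse. Il10 averaged 0.861 ± 1.02 CPM in vismodegib mice (SD, n = 4) and 0.183 ± 0.118 CPM in healthy mice (SD, n = 5), a log2 fold change of 2.17 (SE 0.67, edgeR adjusted p = 0.0466). Without vismodegib mouse 9 it was 0.94 and not called, and the call was also lost without healthy mouse 10, 13, 14 or 16. Against BCC skin the log2 fold change was 1.80 (SE 0.71, edgeR adjusted p = 0.0926), and 0.60 without vismodegib mouse 9. DESeq2 called it at 1.82. In AFL against vismodegib skin it was 1.44 (SE 0.70, edgeR adjusted p = 0.207). Without vismodegib mouse 9 that difference was 2.63 and was called. The gene is sparse, with 71 to 125 counts per AFL mouse, 10 to 45 per vismodegib mouse, 3 to 16 per BCC mouse and 2 to 13 per healthy mouse. It reached the filter's limit of 0.303 unscaled CPM in the 3 AFL and 4 vismodegib mice but in 1 BCC and 1 healthy mouse. It therefore entered the test through the treated groups.

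The calls of Il10 in AFL skin were kept whichever mouse was left out, with log2 fold changes of 2.96 to 3.83 against BCC skin and 3.37 to 4.03 against healthy skin. With days since induction as a covariate the log2 fold change against BCC skin was 4.13 without a call, and with the growing-hair score as a covariate it was 2.84 with a call against BCC skin and 2.39 without one against healthy skin. AFL mice did not overlap BCC mice in days or healthy mice in the score. The values of 4.13 and 2.39 therefore cannot separate the covariate from the group. Genes of macrophages, a source of IL-10, moved with it: 12 of 13 macrophage genes rose in AFL against BCC skin and none fell, and their summed level was 3732 to 5234 CPM in AFL mice, 746 to 2747 CPM in vismodegib mice, 400 to 760 CPM in BCC mice and 472 to 1333 CPM in healthy mice. In whole skin more cells of a type and more RNA per cell cannot be told apart. In vismodegib against BCC skin 6 of the 13 rose and 1 fell, Mertk, with Fcgr1 (log2 fold change 2.35) and Cd68 (1.11) among those that rose. As a percentage of that macrophage sum, Il10 was 0.0370 to 0.0593 in AFL mice, 0.0299 to 0.0870 in vismodegib mice, 0.0217 to 0.0766 in BCC mice and 0.00726 to 0.0313 in healthy mice. The AFL and BCC ranges of this ratio overlapped, while the AFL and healthy ranges did not. The macrophage sum weighs its most abundant genes most, among them Lyz2, which averaged 1938 CPM in AFL mice and 218 CPM in BCC mice. Ratios to this sum, here and below, are therefore not levels per macrophage.

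Of 8 genes of the IL-10 pathway, 2 rose and none fell in AFL against BCC skin, both of them chains of the IL-10 receptor. Il10ra averaged 67.5 CPM in AFL mice and 12.6 CPM in BCC mice (log2 fold change 2.42), and Il10rb 76.9 CPM in AFL mice and 26.9 CPM in BCC mice (1.51). In vismodegib against BCC skin 2 of 8 rose, Stat3, which carries the IL-10 signal among others (log2 fold change 0.99), and Bcl3, an NF-kappa-B regulator that STAT3 can switch on (1.99). The median of the 8 genes was 0.78 in AFL against BCC skin and 0.64 in vismodegib against BCC skin, beside -0.04 and 0.05 for all genes.

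**Figure D2:**
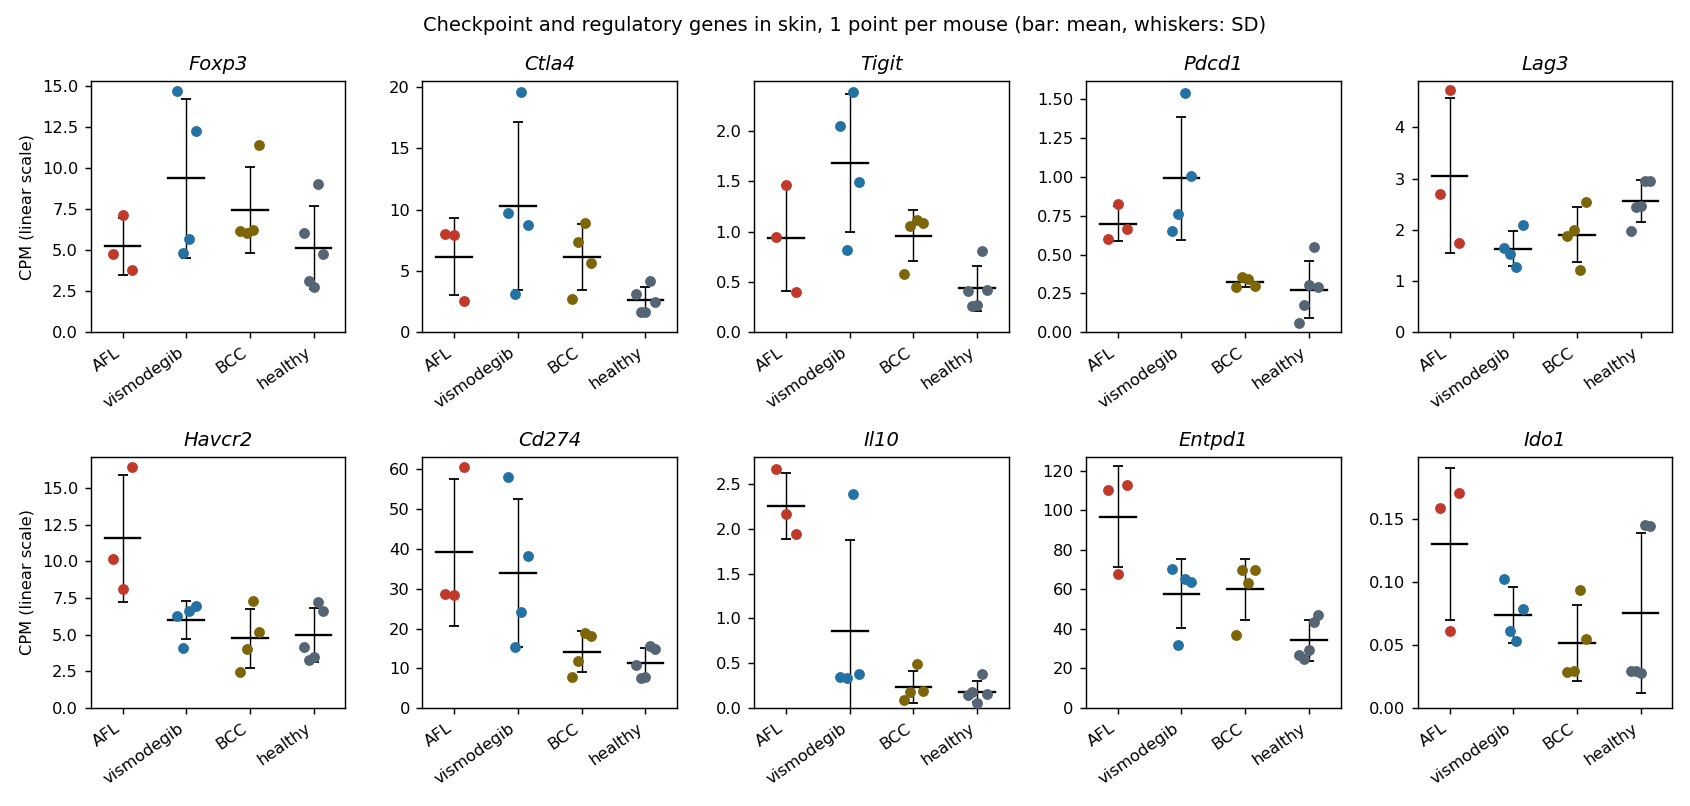
CPM (y axis, linear, starting at 0) of each of the 10 genes in AFL, vismodegib, BCC and healthy skin; points are mice, horizontal bars are means and whiskers are SD (n = 3, 4, 4 and 5 mice). Il10 shows 1 vismodegib mouse at 2.39 CPM beside 3 at 0.335 to 0.377 CPM, and Pdcd1 shows all AFL and vismodegib mice above all BCC and healthy mice.

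The ligand gene Cd274 was higher in both treated groups. It was at 28.6, 28.4 and 60.5 CPM in AFL mice 2, 7 and 11, 58.2, 15.3, 24.2 and 38.2 CPM in vismodegib mice 1, 6, 9 and 12, 7.94, 11.8, 18.8 and 18.1 CPM in BCC mice 3, 4, 5 and 8, and 10.8, 7.58, 7.87, 15.6 and 15.0 CPM in healthy mice 10, 13, 14, 15 and 16. All AFL mice lay above all BCC and healthy mice, while vismodegib mouse 6 lay within the BCC and healthy ranges. Cd274 rose in vismodegib against BCC skin (log2 fold change 1.26, SE 0.41, edgeR adjusted p = 0.0471), in vismodegib against healthy skin (1.58, SE 0.39, edgeR adjusted p = 0.018) and in AFL against healthy skin (1.79, SE 0.41, edgeR adjusted p = 0.0101). In AFL against BCC skin its log2 fold change was 1.47 (SE 0.44, edgeR adjusted p = 0.0523), which missed the threshold with edgeR. DESeq2 called it at 1.44. AFL and vismodegib skin did not differ detectably (log2 fold change 0.21, 95% interval -0.72 to 1.14, edgeR adjusted p = 0.796), and the BCC against healthy value was 0.32 (edgeR adjusted p = 0.762).

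The Cd274 calls depended on single mice and, in vismodegib against BCC skin, on the processing. There the call was kept in 4 of 10 settings that left out no mouse, and it ended, among others, with library size alone (0.91), days since induction as a covariate (1.21), no filter (1.23), the lower-numbered (1.17) or the higher-numbered (1.31) library of each mouse. The call in vismodegib against BCC skin ended without vismodegib mouse 1 or 12 and without any 1 of the 4 BCC mice (0.87 to 1.51 over all 8 left-out mice), that in AFL against healthy skin ended without AFL mouse 11 (1.29) and that in vismodegib against healthy skin ended without vismodegib mouse 1 or healthy mouse 14 (1.19 to 1.82 over all 9). With the growing-hair score as a covariate it was 1.18 in AFL against healthy skin and 0.98 in vismodegib against healthy skin, neither called. As a percentage of the macrophage sum Cd274 was lower in AFL mice, at 0.636 to 1.16, than in BCC mice, at 1.56 to 2.89, with no overlap, while vismodegib mice were at 0.881 to 6.93 and healthy mice at 0.847 to 2.29. The Cd274 level thus exceeded that of BCC skin in every AFL mouse while its ratio to the macrophage sum, in which Lyz2 weighs heavily, lay below it.

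Genes that respond to interferon gamma, an inducer of Cd274, rose in part. Of 11 tested, 4 rose in AFL against BCC skin and none fell, with a median of 1.43 beside -0.04 for all genes. They included the chemokine Cxcl10 (8.07 CPM in AFL mice and 0.780 CPM in BCC mice, log2 fold change 3.37) and the transcription factor Irf8 (1.83). In vismodegib against BCC skin 1 of the 11 rose and none fell, and the median was 0.45 beside 0.05 for all genes. In BCC against healthy skin none of the 11 was called. The mean log2 CPM of the interferon gamma list was 5.19, 5.08 and 4.38 in AFL mice 2, 7 and 11. It was 3.48, 2.56, 4.34 and 4.08 in vismodegib mice 1, 6, 9 and 12. The mice with the highest Cd274 of these groups were AFL mouse 11 and vismodegib mouse 1. The part of interferon gamma in the Cd274 levels was not tested.

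Havcr2, the TIM-3 gene of T cells and myeloid cells, was highest in AFL skin. Its level was 10.1, 8.11 and 16.4 CPM in AFL mice 2, 7 and 11, 6.25, 4.11, 6.64 and 6.96 CPM in vismodegib mice 1, 6, 9 and 12, 2.49, 4.03, 7.31 and 5.18 CPM in BCC mice 3, 4, 5 and 8, and 4.17, 3.27, 3.48, 7.24 and 6.61 CPM in healthy mice 10, 13, 14, 15 and 16. The AFL mice lay above all others, and the other 3 groups overlapped. It rose in AFL against healthy skin (log2 fold change 1.22, SE 0.37, edgeR adjusted p = 0.0474). Against BCC skin the AFL value was 1.28 (SE 0.39, edgeR adjusted p = 0.0559), called by DESeq2 at 1.26, and against vismodegib skin 0.95 (SE 0.39, edgeR adjusted p = 0.136). The vismodegib against BCC value was 0.33 (95% interval -0.44 to 1.11, edgeR adjusted p = 0.564).

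The call of Havcr2 in AFL against healthy skin was lost without AFL mouse 2 or 11 and without healthy mouse 10, 13 or 14 (0.84 to 1.42), and it was lost with the growing-hair score as a covariate (0.70). Its ratio to the macrophage sum ran the other way from its level, at 0.217 to 0.314% in AFL mice and 0.530 to 1.13% in BCC mice, without overlap. It was 0.242 to 0.744% in vismodegib mice and 0.365 to 0.883% in healthy mice. Lgals9, whose product galectin-9 binds TIM-3, rose in AFL against BCC skin (165.6 CPM in AFL mice and 45.9 CPM in BCC mice, log2 fold change 1.85).

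Entpd1, the CD39 gene of regulatory T cells, macrophages and vessels, was higher in AFL than in healthy skin. It was at 110.2, 67.5 and 112.5 CPM in AFL mice 2, 7 and 11, 70.0, 31.8, 65.4 and 63.7 CPM in vismodegib mice 1, 6, 9 and 12, 37.1, 69.6, 63.4 and 69.7 CPM in BCC mice 3, 4, 5 and 8, and 26.7, 24.8, 29.2, 43.4 and 46.8 CPM in healthy mice 10, 13, 14, 15 and 16. AFL mouse 7 fell within the BCC and vismodegib ranges, and all AFL mice lay above the healthy mice. It rose 2.83-fold in AFL against healthy skin (95% interval 1.82 to 4.39; log2 fold change 1.50, SE 0.30, edgeR adjusted p = 0.00343), a call kept whichever mouse was left out (1.34 to 1.70) and lost with the growing-hair score as a covariate (0.87). The vismodegib against healthy value of 0.76 (SE 0.28) and the BCC against healthy value of 0.81 (SE 0.28) missed the threshold (edgeR adjusted p = 0.0842 and 0.166). The vismodegib against healthy value was called at 0.96 without vismodegib mouse 6. Against BCC skin the log2 fold change was 0.69 in AFL skin (edgeR adjusted p = 0.228) and -0.06 in vismodegib skin (95% interval -0.68 to 0.57).

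Of 10 vessel genes, 5 rose in AFL against BCC skin and 2 in AFL against healthy skin. Their summed level was 308 to 622 CPM in AFL mice and 158 to 365 CPM in vismodegib mice. It was 143 to 232 CPM in BCC mice and 146 to 315 CPM in healthy mice. Among AFL mice, mouse 7 had the highest vessel sum (622 CPM) and the lowest Entpd1 (67.5 CPM). AFL mouse 2 had the lowest vessel sum (308 CPM), with Entpd1 at 110.2 CPM. The part of vessels in the Entpd1 result was not tested. As a percentage of the vessel sum Entpd1 was 10.8 to 35.7 in AFL mice, 19.2 to 29.7 in vismodegib mice, 26.0 to 37.8 in BCC mice and 13.9 to 20.0 in healthy mice. The AFL range of this ratio covered the vismodegib and healthy ranges and overlapped the BCC range. As a percentage of the macrophage sum it was 1.81 to 2.45 in AFL mice, 2.38 to 8.34 in vismodegib mice, 9.16 to 10.8 in BCC mice and 2.77 to 5.66 in healthy mice. The BCC mice lay above all others in this ratio, and the AFL and vismodegib ranges overlapped.

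Of 11 genes of adenosine and tryptophan breakdown tested, 1 rose and 1 fell in AFL against BCC skin, and 1 rose and 3 fell in vismodegib against BCC skin. Ada, which removes adenosine, rose in both (log2 fold change 1.65 in AFL skin and 1.53 in vismodegib skin; 18.5 CPM in AFL mice, 17.1 CPM in vismodegib mice and 5.91 CPM in BCC mice). Tdo2, another enzyme that opens the tryptophan ring, fell in both (-2.95 in AFL skin and -3.90 in vismodegib skin). It was the single gene of this list called in BCC against healthy skin, with 1.20 CPM in BCC mice and 0.122 CPM in healthy mice (log2 fold change 3.26). Haao, a later enzyme of tryptophan breakdown (-1.48), and Entpd2, another ATP-degrading enzyme (-1.07), fell in vismodegib against BCC skin.

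Ido1 was close to the detection limit. It had 54 counts over all 16 mice, with 5, 2 and 11 counts in AFL mice 2, 7 and 11, 1 to 5 per vismodegib mouse, 1 to 3 per BCC mouse and 1 to 10 per healthy mouse. It did not pass the filter on low counts. In a fit of 18467 genes without the filter its adjusted p was between 0.323 and 0.969 in the 6 comparisons, so that a difference was not detectable at this depth.

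Pdcd1, the PD-1 gene, separated treated from untreated induced skin although its counts were low. It was at 0.603, 0.823 and 0.667 CPM in AFL mice 2, 7 and 11, 0.649, 0.761, 1.54 and 1.01 CPM in vismodegib mice 1, 6, 9 and 12, 0.290, 0.353, 0.342 and 0.300 CPM in BCC mice 3, 4, 5 and 8, and 0.0591, 0.175, 0.304, 0.550 and 0.289 CPM in healthy mice 10, 13, 14, 15 and 16. All 7 treated mice lay above all 9 untreated ones, though AFL mouse 2 and healthy mouse 15 each held 19 counts. It rose 3.04-fold in vismodegib against BCC skin (95% interval 1.49 to 6.19; log2 fold change 1.60, SE 0.48, edgeR adjusted p = 0.0338) and 3.53-fold in vismodegib against healthy skin (1.82, SE 0.45, edgeR adjusted p = 0.0191). The AFL values were 1.11 against BCC skin (SE 0.51, edgeR adjusted p = 0.227) and 1.33 against healthy skin (SE 0.48, edgeR adjusted p = 0.0974), neither called. AFL and vismodegib skin did not differ detectably (log2 fold change -0.49, 95% interval -1.56 to 0.57, edgeR adjusted p = 0.56).

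Pdcd1 had 19 to 43 counts per AFL mouse, 19 to 64 per vismodegib mouse, 10 to 12 per BCC mouse and 2 to 20 per healthy mouse. The paired libraries of 1 mouse number differed widely, with 13 and 30 counts in AFL mouse 11 and 47 and 17 counts in vismodegib mouse 12. They held 1 and 19 counts in healthy mouse 16, whose libraries carry different ages (128 and 135 days). Taken singly, 1 library of AFL mouse 11 (0.408 CPM) and 1 of vismodegib mouse 12 (0.531 CPM) lay below 1 of healthy mouse 16 (0.579 CPM). The separation of treated from healthy mice thus did not hold by library. The call in vismodegib against BCC skin was lost without vismodegib mouse 9 or 12 and without any 1 of the 4 BCC mice (1.35 to 1.76), and it was kept in 5 of 10 settings that left out no mouse. The call against healthy skin was lost without vismodegib mouse 9 (1.54) and with the growing-hair score as a covariate (1.47), and the AFL against healthy value was called at 1.71 without healthy mouse 15 and by DESeq2 at 1.33.

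Ctla4 and Tigit, receptors of regulatory and activated T cells, rose in vismodegib against healthy skin. Ctla4 was at 7.99, 7.96 and 2.53 CPM in AFL mice 2, 7 and 11, 9.70, 3.17, 19.6 and 8.74 CPM in vismodegib mice 1, 6, 9 and 12, 2.69, 7.35, 8.89 and 5.64 CPM in BCC mice 3, 4, 5 and 8, and 3.13, 1.69, 1.66, 4.20 and 2.52 CPM in healthy mice 10, 13, 14, 15 and 16. Tigit was at 0.951, 1.46 and 0.403 CPM in AFL mice 2, 7 and 11, 2.05, 0.822, 2.39 and 1.49 CPM in vismodegib mice 1, 6, 9 and 12, 0.579, 1.06, 1.12 and 1.09 CPM in BCC mice 3, 4, 5 and 8, and 0.414, 0.262, 0.276, 0.810 and 0.419 CPM in healthy mice 10, 13, 14, 15 and 16. For both genes AFL mouse 11, vismodegib mouse 6 and BCC mouse 3 were the lowest of their groups, and healthy mouse 15 the highest of its group. The vismodegib and healthy mice did not overlap in Tigit but did in Ctla4, and every other pair of groups overlapped in both genes.

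Against healthy skin the log2 fold change in vismodegib skin was 1.94 for Tigit (SE 0.45, edgeR adjusted p = 0.0133) and 1.96 for Ctla4 (SE 0.50, edgeR adjusted p = 0.021). The Tigit call was kept whichever mouse was left out (1.72 to 2.27), and the Ctla4 call was lost without vismodegib mouse 9 or healthy mouse 13 or 14 (1.44 to 2.26). With the growing-hair score as a covariate the values were 1.01 for Tigit and 0.58 for Ctla4, neither called. The AFL against healthy values were 1.09 for Tigit (edgeR adjusted p = 0.171) and 1.22 for Ctla4 (edgeR adjusted p = 0.16), and the BCC against healthy values 1.14 for Tigit (edgeR adjusted p = 0.251) and 1.22 for Ctla4 (edgeR adjusted p = 0.263). The vismodegib against BCC values were 0.80 for Tigit and 0.74 for Ctla4 (edgeR adjusted p = 0.248 and 0.342). In AFL against BCC skin they were -0.05 for Tigit (95% interval -1.12 to 1.02) and 0.00 for Ctla4 (95% interval -1.18 to 1.19).

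None of 13 T cell genes was called in AFL or vismodegib against BCC skin, in BCC or vismodegib against healthy skin, or in AFL against vismodegib skin, and 2 of 13 rose in AFL against healthy skin (Cd4 and Cd8b1), where Cd3e, as given above, lay lower in all AFL mice without being called. The summed level of the 13 genes was 107 to 179 CPM in AFL mice, 90.5 to 189 CPM in vismodegib mice, 144 to 207 CPM in BCC mice and 107 to 220 CPM in healthy mice, and these sums overlapped between all groups. As a percentage of that sum Pdcd1 was 0.375 to 0.622 in AFL mice, 0.540 to 0.840 in vismodegib mice, 0.155 to 0.221 in BCC mice and 0.0553 to 0.250 in healthy mice. Tigit was 0.376 to 0.819 in AFL mice, 0.908 to 1.71 in vismodegib mice, 0.403 to 0.722 in BCC mice and 0.176 to 0.387 in healthy mice. Each treated group thus lay above both untreated groups in the Pdcd1 ratio, and the vismodegib mice lay above all other mice in the Tigit ratio. The sum weighs its most abundant genes most, and it overlapped between AFL and healthy mice where Cd3e did not. These ratios are therefore not levels per T cell. For Ctla4 the ratio was 2.36 to 4.98 in AFL mice, 3.50 to 10.4 in vismodegib mice, 1.87 to 5.74 in BCC mice and 1.06 to 2.93 in healthy mice, with overlap between vismodegib and BCC mice.

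**Figure D3:**
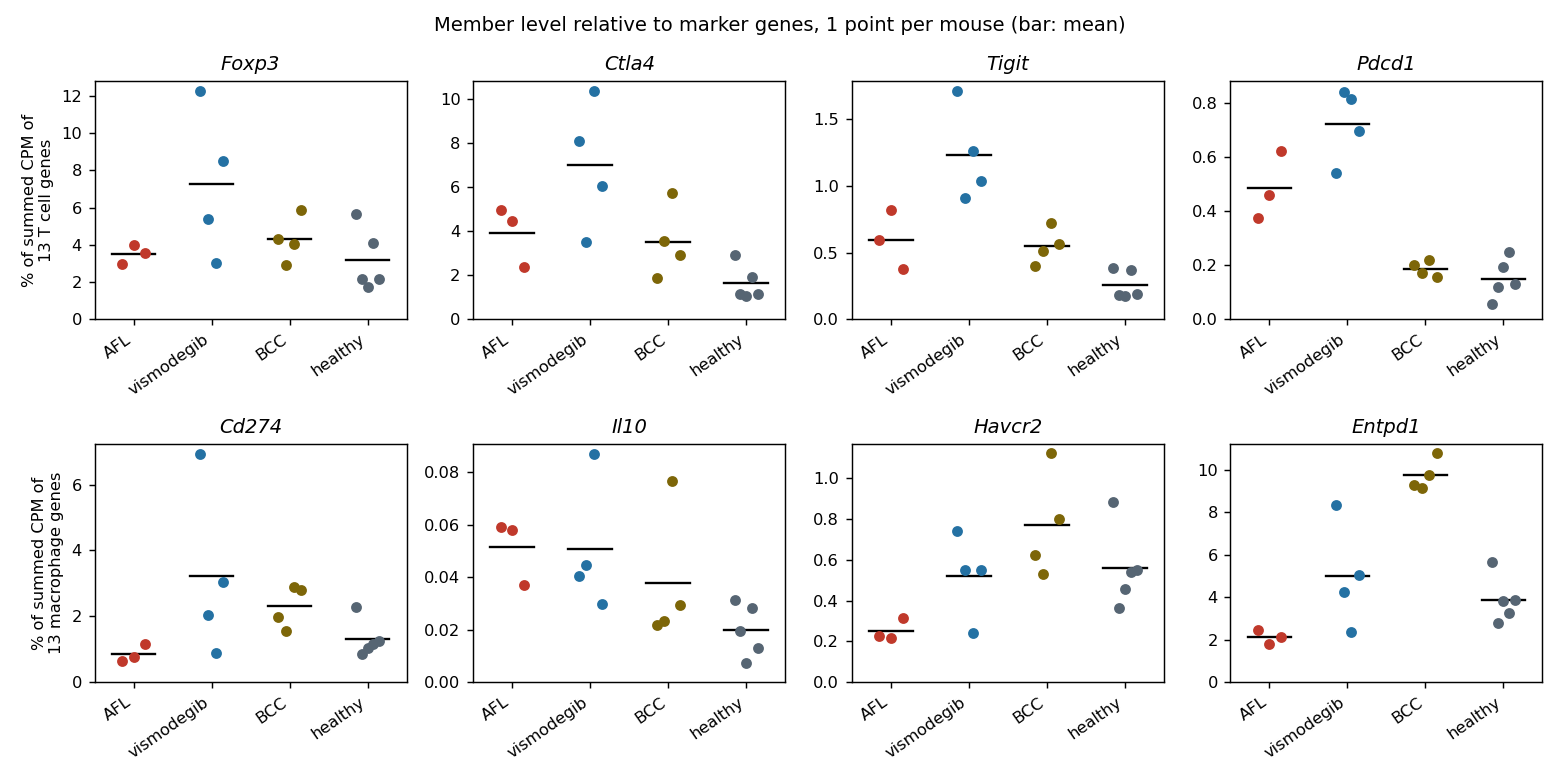
Level of 8 genes as a percentage (y axis, linear, starting at 0) of the summed CPM of 13 T cell genes (upper row) or 13 macrophage genes (lower row) in AFL, vismodegib, BCC and healthy skin; points are mice and bars are means. The Pdcd1 and Tigit ratios are high in vismodegib mice, and the Cd274, Havcr2 and Entpd1 ratios are lower in AFL mice than in BCC mice.

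Foxp3, the defining factor of regulatory T cells, was called in no comparison. It ranged over 3.80 to 7.14 CPM in AFL mice (median 4.79), 4.87 to 14.7 CPM in vismodegib mice (median 8.98), 6.08 to 11.4 CPM in BCC mice (median 6.22) and 2.76 to 9.06 CPM in healthy mice (median 4.80). Vismodegib mice 1 and 12 were the highest of all mice, and all groups overlapped. Its log2 fold change was -0.52 in AFL against BCC skin (95% interval -1.50 to 0.47), 0.33 in vismodegib against BCC skin (-0.58 to 1.23), -0.84 in AFL against vismodegib skin (-1.84 to 0.15), 0.02 in AFL against healthy skin (-0.91 to 0.96), 0.87 in vismodegib against healthy skin (0.01 to 1.72) and 0.54 in BCC against healthy skin (-0.32 to 1.39). The edgeR adjusted p of these values lay between 0.154 and 0.982. With days since induction as a covariate the Foxp3 value was -1.51 in AFL against BCC skin and -1.37 in AFL against vismodegib skin, neither called. AFL and BCC mice did not overlap in days, so the value of -1.51 cannot separate time from laser. Foxp3 was 2.98 to 3.99% of the T cell sum in AFL mice, 3.00 to 12.3% in vismodegib mice, 2.94 to 5.89% in BCC mice and 1.76 to 5.64% in healthy mice.

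Of 12 other genes linked to regulatory T cells, 3 rose and none fell in AFL against BCC skin, and 2 rose and none fell in vismodegib against BCC skin. The AFL genes were Tnfrsf1b, a TNF receptor also present on myeloid cells (144.1 CPM in AFL mice and 24.2 CPM in BCC mice, log2 fold change 2.58), Il1rl1, the IL-33 receptor also present on mast cells (2.30), and Ebi3, a cytokine subunit (1.82). In vismodegib skin they were Tnfrsf1b (0.82) and Areg, an epidermal growth factor family ligand also made by keratinocytes (1.39). Il2ra, the high-affinity IL-2 receptor chain of regulatory and activated T cells, rose in vismodegib against healthy skin (13.0 CPM in vismodegib mice and 3.37 CPM in healthy mice, 1.94), the 1 gene of the 12 called there. The median of the 12 was 0.27 in AFL against BCC skin and 0.37 in vismodegib against BCC skin.

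Lag3, a receptor of activated T cells and natural killer cells that binds MHC class II, was called in no comparison. Its range was 1.75 to 4.73 CPM in AFL mice (median 2.70), 1.27 to 2.09 CPM in vismodegib mice (median 1.58), 1.21 to 2.53 CPM in BCC mice (median 1.94) and 1.98 to 2.95 CPM in healthy mice (median 2.46). It was the 1 gene of the 9 whose fitted value was below 0 in vismodegib against healthy skin (-0.64, 95% interval -1.32 to 0.04, edgeR adjusted p = 0.18). In AFL against vismodegib skin it was 0.90 (SE 0.36, edgeR adjusted p = 0.125), with AFL mouse 7 the highest of all mice and AFL mouse 11 within the vismodegib range. Against BCC skin the value was 0.68 in AFL skin and -0.22 in vismodegib skin (edgeR adjusted p = 0.3 and 0.693). With days since induction as a covariate the AFL against BCC value was -0.24, which, as for Foxp3, cannot separate time from laser. As a percentage of the T cell sum Lag3 was 1.64 to 2.65 in AFL mice, 0.674 to 1.68 in vismodegib mice, 0.783 to 1.31 in BCC mice and 1.34 to 1.85 in healthy mice. The AFL mice lay above the BCC mice in this ratio and overlapped the other groups.

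Of 18 other checkpoint receptors and ligands tested, 6 rose and none fell in AFL against BCC skin (median 0.73 beside -0.04 for all genes), and 1 rose and 1 fell in vismodegib against BCC skin (median 0.24 beside 0.05). Compared directly, 4 of the 18 were higher and none lower in AFL against vismodegib skin. In AFL against BCC skin the smallest p values were those of Lgals9, given above, Lair1, a collagen receptor of leukocytes (23.6 CPM in AFL mice and 1.98 CPM in BCC mice, log2 fold change 3.57), and Vsir, the VISTA gene of myeloid cells (144.6 CPM in AFL mice and 49.8 CPM in BCC mice, 1.54). In vismodegib against BCC skin Ceacam1, an adhesion receptor that inhibits T cells, rose (1.01) and Cd276, the B7-H3 gene, fell (14.1 CPM in vismodegib mice and 29.2 CPM in BCC mice, -1.05). None of the 18 was called in BCC against healthy skin or in vismodegib against healthy skin, and 7 rose in AFL against healthy skin. Their summed level was 534 to 552 CPM in AFL mice, 292 to 329 CPM in vismodegib mice, 254 to 298 CPM in BCC mice and 260 to 345 CPM in healthy mice. The macrophage sums given above were also highest in the AFL mice. AFL mouse 7 had the lowest macrophage sum of the AFL mice (3732 CPM) and the highest sum of these checkpoint genes (552 CPM). The checkpoint sums of AFL mice 2 and 11 were close to it, at 534 and 539 CPM. By mean log2 CPM, AFL mouse 7 was the lowest AFL mouse in both lists (2.67 for checkpoint and 7.46 for macrophage genes). By the sums, vismodegib mouse 6 was the lowest of its group in both lists. BCC mouse 4 and healthy mouse 15 were the highest of their groups in both. The part of macrophages in the result was not tested.

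Of 12 stimulatory receptors and ligands, 1 rose in AFL against BCC skin, Cd40 of antigen-presenting cells (14.2 CPM in AFL mice and 4.25 CPM in BCC mice, 1.74), and 2 rose in vismodegib against BCC skin. These were Tnfrsf9, the 4-1BB gene of activated T cells (10.0 CPM in vismodegib mice and 3.60 CPM in BCC mice, 1.48), and Tnfrsf18, the GITR gene (0.82). Tnfrsf9 also rose in BCC against healthy skin, with 3.60 CPM in BCC mice and 1.00 CPM in healthy mice (1.84), where none of the 10 checkpoint and regulatory genes was called. Cytotoxic genes rose in 4 of 10 cases in AFL against BCC skin and in 2 of 10 in vismodegib against BCC skin. Their summed level was 15.2 to 40.2 CPM in AFL mice, 5.57 to 31.3 CPM in vismodegib mice, 7.94 to 19.5 CPM in BCC mice and 11.1 to 21.8 CPM in healthy mice. Dendritic and Langerhans cell genes rose in 3 of 11 cases and fell in 1 in AFL against BCC skin, and rose in 2 of 11 in vismodegib against BCC skin. Both tested B cell genes of 6 listed rose in AFL against BCC skin, and none of 6 basal keratinocyte genes was called there. In vismodegib against BCC skin 1 of the 6 rose, Krt14 (17442 CPM in vismodegib mice and 4060 CPM in BCC mice, log2 fold change 2.10), beside the calls of Cd274 and Pdcd1. The summed level of the 6 genes was 11933 to 23029 CPM in AFL mice, 23043 to 44222 CPM in vismodegib mice, 8783 to 17821 CPM in BCC mice and 9133 to 13355 CPM in healthy mice, so that all vismodegib mice lay above all BCC and healthy mice. Against healthy skin Krt14 and Itga6 rose and Krt15 fell in both AFL and vismodegib skin. The part of these other cells in the results was not tested.

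The genes were compared with each other over the 16 mice. The Pearson correlation of log2 CPM was 0.951 between Ctla4 and Tigit (Spearman 0.947) and 0.926 without healthy mice 13 and 14, the mice furthest from the median of Tigit. It was 0.829 between Cd274 and Havcr2 (Spearman 0.824) and 0.736 without AFL mouse 11 and BCC mouse 3. After the group means were removed the Pearson values were 0.920 for Ctla4 and Tigit and 0.839 for Cd274 and Havcr2, so that mice of the same group also differed together. Entpd1 and Il10 were close to the second pair, with Pearson values of 0.802 between Havcr2 and Il10, 0.795 between Cd274 and Entpd1 and 0.791 between Havcr2 and Entpd1. After the group means were removed these were 0.562, 0.787 and 0.824 in the same order. Lag3 correlated with the other genes at -0.248 to 0.0747 over all mice, but at 0.526 with Foxp3 and 0.407 with Tigit after the group means were removed. These values describe 36 pairs that share the same libraries and scaling, and no p is given.

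**Figure D4:**
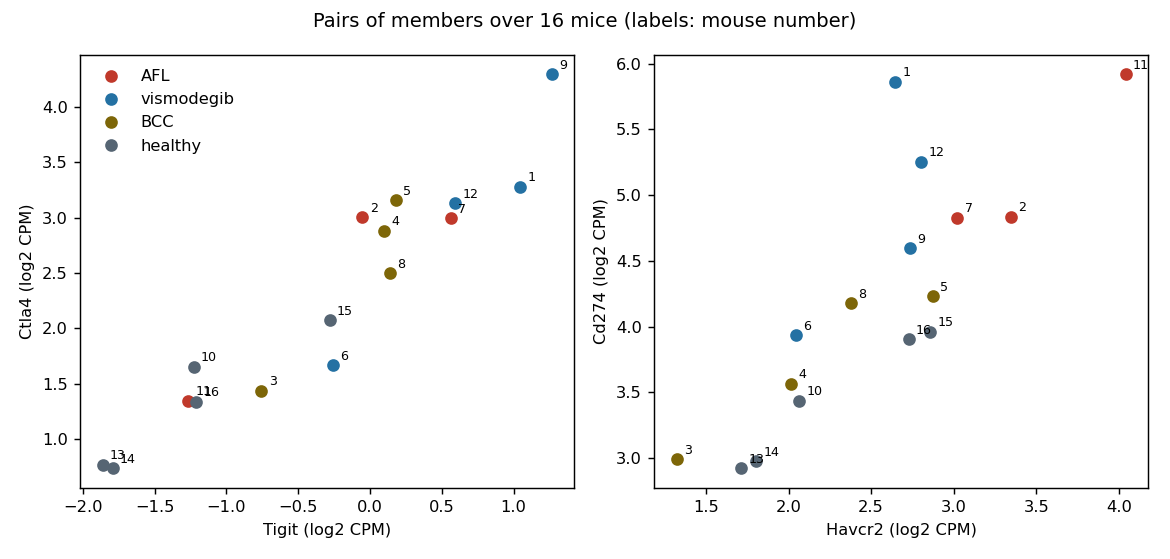
Log2 CPM of Ctla4 against Tigit (left) and of Cd274 against Havcr2 (right) in 16 mice, coloured by group and labelled by mouse number. AFL mouse 11 is at the lower left for Ctla4 and Tigit, at 2.53 and 0.403 CPM, and at the upper right for Cd274 and Havcr2, at 60.5 and 16.4 CPM.

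AFL mouse 11 stood at opposite ends of these pairs. It had the lowest Ctla4, Tigit, Foxp3, Lag3 and Il10 of the AFL mice and the highest Cd274, Havcr2, Entpd1 and Ido1. BCC mouse 3 was the lowest of its group in 8 of the 10 genes and vismodegib mouse 6 in 7 of 10, the mice with the highest growing-hair score in their groups. The healthy mouse with the highest score, mouse 10 (9.18), was the lowest of its group in 2 of 10. Healthy mice 13 and 14, with scores of 8.43 and 8.32, were the lowest in 4 of 10 each. The healthy mice with lower scores held the highest places, mouse 15 (6.49) in 9 of 10 genes and mouse 16 (3.42) in 1 of 10. These counts were made after the values were seen and carry no test.

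The genes most like each member over the 16 mice, outside the list, were Sdr16c5 (Pearson 0.950) and Icos, the stimulatory relative of CTLA-4 (0.940), for Ctla4, and Il2ra (0.958) and Slurp1 (0.942) for Tigit. For Il10 they were Plac8 (0.982), Ms4a6b (0.953) and the lysosomal protease gene Ctss (0.945). For Cd274 they were Birc3, an NF-kappa-B target (0.951), and the cytokine receptor chain Csf2rb (0.946). For Havcr2 they were Il1rl1 (0.953), Iqgap2 (0.940) and the leukocyte adaptor Lcp2 (0.939). Pdcd1 was most like Serpinb12 (0.893), Foxp3 most like Ano7 (0.909), Entpd1 most like Sec24d (0.939) and Lag3 most like Steap3 (0.929).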

How the data were processed

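RNA of 19 libraries from 16 mice was sequenced with a directional kit, per the labels' protocols. The authors deposited estimated counts (expected counts per gene), made with Bowtie2 and RSEM on GRCm39, per the submitters' processing notes. The sources used here name neither their versions nor the strand setting of the counting. Expected counts were rounded (3.42% of values were not whole) and summed over the libraries of a mouse, since AFL mouse 11, vismodegib mouse 12 and healthy mouse 16 have 2 libraries each. The 2 libraries of healthy mouse 16 share a mouse number but carry ages of 128 and 135 days. They were summed by the number, and whether they come from 1 animal cannot be told from the labels. edgeR 4.0.16 (R 4.3.3, limma 3.58.1) fitted its quasi-likelihood model to all 4 groups with TMM scaling and the low-count filter, which kept 15760 of 18521 genes and removed 2761. The test was two-sided, with Benjamini-Hochberg adjustment over the genes kept and a threshold of 0.05. SE is the size of the log2 fold change over the root of F. Log2 CPM used 0.5 counts as pseudocount. Alternatives were no filter, library size alone, RLE scaling, DESeq2 1.42.0, all 19 libraries as replicates, 1 library per mouse (chosen after seeing the data), a replicate block, 2 covariates (growing-hair score, days since induction) and leaving out each mouse. The labels give separate mice, so p-values measure the spread between mice. The same fit was also run on simulated counts, drawn with the dispersions estimated from these data. The outcome of that run is not given here.

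The 10 genes and the other lists were chosen with earlier results of these data known. Named were the 10 genes, up to 3 called genes with the smallest p of each list in BCC against healthy, AFL against BCC and vismodegib against BCC skin, and the 3 genes of most like pattern, of which 1 to 3 are given. Entpd2, Il2ra, Lyz2, Cd4, Cd8b1, Itga6 and Krt15 were named after their values were seen. The values of 1 gene that the rule names are not reported here. Same-numbered libraries of different groups did not all deviate together, so the numbers were not used to pair samples. Proteins were not analysed here.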

Additional observations from a re-analysis of the deposited data

Results flagged for a closer look

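Of 30 groups of 4 or 5 mice checked for a mouse far from the others of its group, 5 held one, and chance alone marks about 1 in 20 groups. Il10 was at 2.39 CPM in vismodegib mouse 9, where the nearest other vismodegib mouse was at 0.377 CPM. Entpd1 was at 31.8 CPM in vismodegib mouse 6, where the nearest was at 63.7 CPM. Foxp3 was at 11.4 CPM in BCC mouse 8, where the nearest was at 6.25 CPM. Tigit was at 0.579 CPM in BCC mouse 3, where the nearest was at 1.06 CPM. Tigit was at 0.810 CPM in healthy mouse 15, where the nearest was at 0.419 CPM.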

How the results depend on the processing

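The count of the 9 genes called in AFL against BCC skin, 1 with edgeR, was 3 with DESeq2, 3 with all 19 libraries, 3 with the replicate block, 2 with the lower-numbered library per mouse, 0 with days since induction as a covariate and 1 to 2 with a mouse left out. In vismodegib against BCC skin, 2 with edgeR, it was 0 with either single library per mouse, 0 with library size alone, 0 with the replicate block, 1 with all 19 libraries, 1 without the filter, 1 with days since induction and 0 to 2 with a mouse left out. In AFL against vismodegib skin, 0 with edgeR, it was 2 with all 19 libraries and 0 to 1 with a mouse left out. In AFL against healthy skin, 4 with edgeR, it was 0 with the growing-hair score and 2 to 5 with a mouse left out. In vismodegib against healthy skin, 5 with edgeR, it was 0 with the growing-hair score, 3 with the replicate block and 2 to 6 with a mouse left out. In BCC against healthy skin it was 0 under every setting run. The cause of these changes was not tested. AFL and BCC mice did not overlap in days since induction, and AFL and healthy mice did not overlap in the growing-hair score. Of the vismodegib mice only mouse 6 reached the healthy range of the score. In these comparisons the covariate is tied to the group, so a lost call cannot separate them. Of 21 same-numbered pairs of libraries, 7 deviated together at a correlation over 0.1 (range -0.394 to 0.579), so the block shares only a number. Log2 fold changes that turned round were all uncalled. With the growing-hair score they were -0.13 (Cd274), -0.46 (Il10) and -0.035 (Pdcd1) in BCC against healthy skin, -0.51 (Ctla4), -0.69 (Foxp3), -0.0828 (Lag3) and -0.19 (Tigit) in AFL against healthy skin, -0.70 (Ctla4) in AFL against BCC skin and -0.18 (Havcr2) in vismodegib against healthy skin. With days since induction they were -0.20 (Ctla4) and -0.24 (Lag3) in AFL against BCC skin and 0.035 (Entpd1) and -0.14 (Foxp3) in vismodegib against BCC skin. Library size alone gave -0.15 (Ctla4, AFL against BCC), -0.033 (Foxp3, AFL against healthy), 0.049 (Havcr2, BCC against healthy), and for Havcr2 -0.065 in vismodegib against BCC and -0.016 in vismodegib against healthy skin. The lower-numbered library gave -0.086 (Ctla4, AFL against BCC), -0.016 (Foxp3, AFL against healthy) and 0.037 (Havcr2, BCC against healthy), and the higher-numbered one -0.055 (Pdcd1, BCC against healthy) and 0.017 (Tigit, AFL against BCC). All 19 libraries gave -0.25 (Ctla4, AFL against BCC) and -0.0798 (Foxp3, AFL against healthy), and DESeq2 gave -0.036, RLE scaling -0.037 and no filter -0.042 for Ctla4 in AFL against BCC skin. The block gave 0.050 (Havcr2, BCC against healthy) and 0.0685 (Tigit, AFL against BCC). With a mouse left out, AFL against BCC values ran over -0.25 to 0.34 (Ctla4) and -0.52 to 0.30 (Tigit), AFL against healthy -0.27 to 0.32 (Foxp3) and -0.21 to 0.50 (Lag3), AFL against vismodegib -0.23 to 0.60 (Cd274), vismodegib against BCC -0.23 to 0.15 (Entpd1), and BCC against healthy -0.32 to 0.15 (Havcr2), -0.23 to 0.79 (Il10) and -0.039 to 0.60 (Pdcd1). Depth limits Ido1, Il10 and Pdcd1, with 54, 439 and 328 counts over all mice.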
